A study of Mus musculus with 3 samples.

Results

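C1q Pf4 dermal macrophages are cells of mouse abdominal skin that were picked by their own transcripts. A barcode, the tag of 1 droplet, was a member if 200 or more genes were detected and mitochondrial genes gave no more than 10% of its UMIs (unique molecular identifiers, each standing for 1 captured transcript). It also had UMIs of at least 3 of the 8 genes C1qa, C1qb, C1qc, Pf4, Mrc1, Ms4a7, Ccl8 and Csf1r, at least 2 UMIs over Tyrobp and Fcer1g together, and no UMI of Cd207. Of 6022 kept cells, 70 met this rule. They were 69 of 3652 cells at gestation day 16 (dpc16), 1 of 1289 cells of the non-pregnant library (NP) and 0 of 1081 cells at day 42 after birth (dpp42). The dpc16 macrophages were set against 48 Langerhans-like cells of the same library, which had at least 1 UMI of Cd207 and at least 5 UMIs of Cd74.

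Every library came from C57BL/6 mice labelled as 8 to 12 weeks old that carried Col1a2creERT2, a recombinase made where the collagen gene Col1a2 is active and switched on by tamoxifen, and R26H2B EGFP, a nuclear reporter. All mice were given tamoxifen, the dpc16 and dpp42 mice while pregnant and the NP mice over 3 days with skin taken 48 days later. The number of mice behind a library is not given in the sources used here. Each stage was 1 library, so no comparison has replicates or a test, and pregnancy, mouse, tamoxifen schedule and library preparation cannot be told apart. All intervals are exact 95% intervals and cover counting error only, while the limit given for a count of 0 is 3 counts.

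Sequencing gave the dpc16 library 21679047 UMIs, against 6031814 for NP and 5794940 for dpp42. The submitters state 1289, 3650 and 1081 cells for the stages where 1289, 3652 and 1081 were kept here. Median UMIs per kept cell were 3119, 4300.5 and 3252. Cells that were neither macrophages nor Langerhans-like and had at least 20 UMIs over the keratin genes Krt5, Krt14, Krt1 and Krt10 are called keratin-rich here. They were 1288 of the 3652 cells in dpc16, although the label gives dermis. Of the other dpc16 cells that were neither macrophages nor Langerhans-like, 1123 had at least 20 UMIs over Col1a1, Col1a2 and Col3a1. Such cells are called collagen-rich. Keratin-rich cells were 686 of 1289 in NP and 427 of 1081 in dpp42, and collagen-rich cells 90 and 97. The libraries thus differed in make-up, and its part in the macrophage shares was not tested. Over all barcodes, those failing the cell filters included, 11 in dpc16, 9 in NP and 6 in dpp42 had sequences also found in another library. No macrophage was among them.

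Macrophages of the dermis sit along vessels and collagen fibres, take up dying cells and debris, and recycle the iron of haem. C1q is the recognition molecule of the classical complement pathway, and macrophages are its main source in most tissues. Langerhans cells belong to the epidermis, carry the lectin langerin (Cd207) and present antigen on MHC class II molecules.

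The first comparison was how often such macrophages were captured at each stage. They made up 1.89% (1.47 to 2.39%) of the kept dpc16 cells and 0.0776% (0.00196 to 0.431%) of the NP cells, a ratio of 24.4 (4.23 to 976). With 2 rule genes in place of 3, the cells were 75, 4 and 2 in dpc16, NP and dpp42 and the ratio to NP was 6.62, while with 4 the NP cell dropped out. In dpp42 the count of 0 allows a share of up to 0.278%, taken at 3 counts, and the dpc16 share was at least 6.81-fold higher than that floor. The exact 95% interval of this ratio starts at 5.39. Among cells that were not keratin-rich, the shares were 2.92% (2.28 to 3.68%) in dpc16, 0.166% (0.0042 to 0.92%) in NP and 0 in dpp42, where 3 counts would be 0.459%. After every cell was thinned to 1500 UMIs, 58, 1 and 0 macrophages remained in dpc16, NP and dpp42. Langerhans-like cells made up 1.31% (0.971 to 1.74%) of dpc16, 0.233% (0.048 to 0.679%) of NP and 0.278% (0.0573 to 0.809%) of dpp42 cells. This gives a ratio of dpc16 to NP of 5.65 (1.82 to 28.3), whose interval overlaps that of the macrophages. Shares were not computed against collagen-rich cells, of which dpc16 had 1123, NP 90 and dpp42 97.

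**Figure D1:**
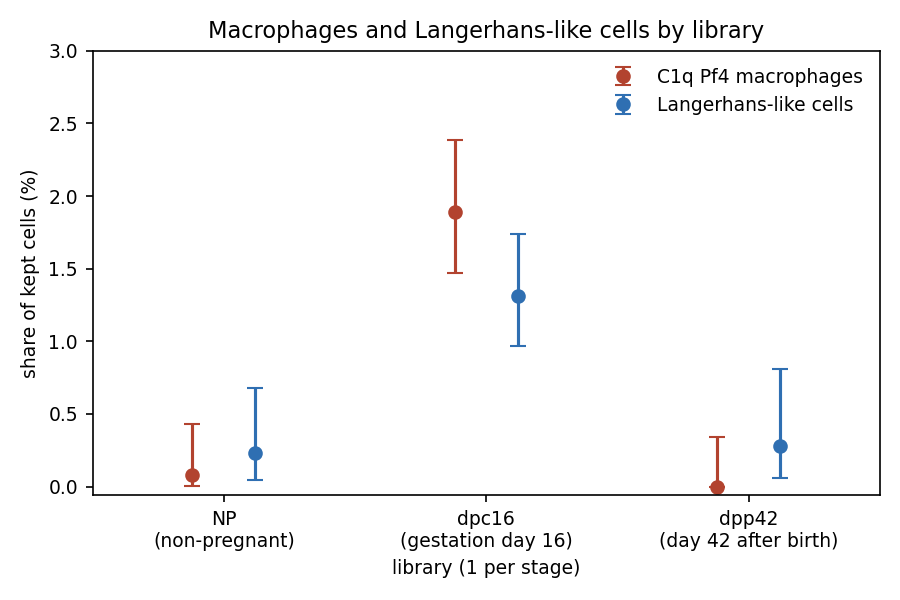
Share of kept cells (%) that were C1q Pf4 macrophages or Langerhans-like cells in the NP, dpc16 and dpp42 libraries. Points are shares of 1 library each, and bars are exact 95% intervals for counting error. The macrophage share was 1.89% in dpc16, against 0.0776% in NP and 0 in dpp42.

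The rule genes were counted over whole libraries as well, without selecting cells, as UMIs per 1000000 of the library in dpc16, NP and dpp42. C1qa stood at 27.3, 0.332 and 0, C1qb at 33.7, 0 and 0.518, and C1qc at 24.8, 0 and 0.345. Pf4 stood at 59.0, 2.32 and 0.518, Ccl8 at 174, 2.16 and 7.59, and Ms4a7 at 8.63, 0.166 and 0. The gaps were smaller for Mrc1, at 13.8, 1.66 and 1.90, and Csf1r, at 13.1, 2.16 and 0.863. They were smaller still for the adaptor genes of the rule, Tyrobp at 40.3, 10.1 and 13.5 and Fcer1g at 53.9, 22.2 and 20.5. Ptprc, which encodes the leukocyte antigen CD45, stood at 6.23, 6.30 and 4.14. These levels cover all barcodes, those failing the cell filters included. Among barcodes left out by those filters, 2 in dpc16 and 0 in the other libraries met the rest of the rule.

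The label fits the rule genes in dpc16, which are given as a description because they chose the cells. All 8 genes were found in 42 of the 69 macrophages, 7 in 19, 6 in 4, 5 in 1 and 3 in 3. C1qb stood at 2561 CPM (UMIs per 1000000, 2369 to 2765) in the macrophages and 10.3 CPM in the Langerhans-like cells. C1qa stood at 2068 against 68.4 CPM and C1qc at 1893 against 10.3 CPM. All 3 chain genes were present together in 62 macrophages, and in 0 Langerhans-like cells. Pf4, a platelet-type CXC chemokine, stood at 4512 CPM and had no UMI in Langerhans-like cells. Ccl8, a CC chemokine that draws monocytes and T cells, stood at 12946.5 against 17.1 CPM, and had UMIs in 64 of the 69 cells. The mannose receptor gene Mrc1 stood at 878 against 6.84 CPM, and Ms4a7, a membrane protein of macrophages, at 684 CPM against 0. Csf1r, the receptor on which macrophages and Langerhans cells both depend, was at 482 against 154 CPM.

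Free RNA in the suspension can put UMIs of these genes into any droplet, so shares of cells were read after thinning to 1500 UMIs, from median depths of 3275 in macrophages and 5441.5 in keratin-rich cells. C1qb was then found in 87% (76.7 to 93.9%) of macrophages and 0.155% (0.0188 to 0.56%) of keratin-rich cells. Ccl8 was found in 85.5% (75 to 92.8%) and 1.09% (0.597 to 1.82%). Ccl8 also had UMIs in 5.25% of the collagen-rich cells. Both genes helped to pick the macrophages, and the keratin-rich and collagen-rich groups leave macrophages out. These shares are therefore a description and do not measure free RNA in the macrophages.

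The C1q chain genes lie side by side on chromosome 4 (GRCm38, chr4:136880129-136898803, minus strand), in an interval of 18.7 kb. Ccl8 lies at chr11:82115185-82116799 on the plus strand, inside a group of CC chemokine genes with Ccl2, Ccl7, Ccl11 and Ccl12 (chr11:82035571-82116799). The 250 bases before the RefSeq start of C1qb (chr4:136886201-136886450, minus strand), C1qc (chr4:136892915-136893164, minus strand) and Ccl8 (chr11:82114935-82115184, plus strand) are shown because these genes define the cells. Capitals mark GAGGAA, the core bound by the myeloid factor PU.1, on either strand. All sequences are from RefSeq, build GRCm38.p6, and run in the direction of the gene.
C1qb: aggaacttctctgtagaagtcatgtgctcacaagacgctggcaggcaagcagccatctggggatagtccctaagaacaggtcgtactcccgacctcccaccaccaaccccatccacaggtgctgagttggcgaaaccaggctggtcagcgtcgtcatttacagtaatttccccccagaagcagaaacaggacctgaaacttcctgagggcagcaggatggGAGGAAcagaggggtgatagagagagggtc
C1qc: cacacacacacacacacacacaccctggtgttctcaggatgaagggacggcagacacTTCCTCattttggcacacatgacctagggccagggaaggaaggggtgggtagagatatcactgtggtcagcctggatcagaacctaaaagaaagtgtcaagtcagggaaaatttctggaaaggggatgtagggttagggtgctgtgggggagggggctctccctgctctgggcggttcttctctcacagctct
Ccl8: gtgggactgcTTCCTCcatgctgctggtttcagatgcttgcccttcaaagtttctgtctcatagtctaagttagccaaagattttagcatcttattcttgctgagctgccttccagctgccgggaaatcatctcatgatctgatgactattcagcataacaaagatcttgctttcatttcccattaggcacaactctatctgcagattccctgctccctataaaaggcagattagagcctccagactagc
Among the rule genes with a sequence here, 5 of 6 (C1qb, C1qc, Ccl8, Mrc1 and Pf4) held this core on either strand, and Ms4a7 did not, against 23.3% of 32851 promoters of the same length. The half-site of MAF factors, TGCTGA, was found in 2 of the 6, C1qb and Ccl8, against 16.1% of all. Such matches describe letters only. Spi1, which encodes PU.1, was at 187 CPM in macrophages and 174 CPM in Langerhans-like cells, a ratio of 1.07 (0.712 to 1.62).

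At the lower edge of the rule, the 3 members with only 3 rule genes had 78 to 250 UMIs of Cd74 and at most 1 UMI of any C1q chain. The member with 5 rule genes had 101 UMIs of Col1a1. Just outside, 6 cells had 2 rule genes and met the other terms, and their Cd74 UMIs ran from 0 to 183 with no Pf4 in any. A further 8 cells had at least 3 rule genes and too few adaptor UMIs, and their Pf4 ran from 0 to 7 UMIs. Another 3 cells failed on Cd207 alone. The 69 members had 2556 to 10479 UMIs with a median of 3275, below the median of 4966.5 of the Langerhans-like cells.

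The second comparison was of the whole profiles of dpc16 macrophages and Langerhans-like cells. A gene outside the rule was measured with at least 50 CPM in 1 group and at least 20 UMIs over both, and 2910 genes were. A gene was called higher or lower at a ratio of at least 2, with a floor of 3 counts for a group at 0. A gene that reached 50 CPM in 1 group alone was more likely to be called, so counts over lists are a description. In all, 503 genes (17.3%) were higher in macrophages and 476 (16.4%) were lower, with a median log2 ratio of -0.06. One alternative left out cells high in keratin or collagen, with at least 10 UMIs over the 4 keratin and 3 collagen genes that made up over 3 times their group's median share. It kept 57 macrophages and 35 Langerhans-like cells.

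**Figure D2:**
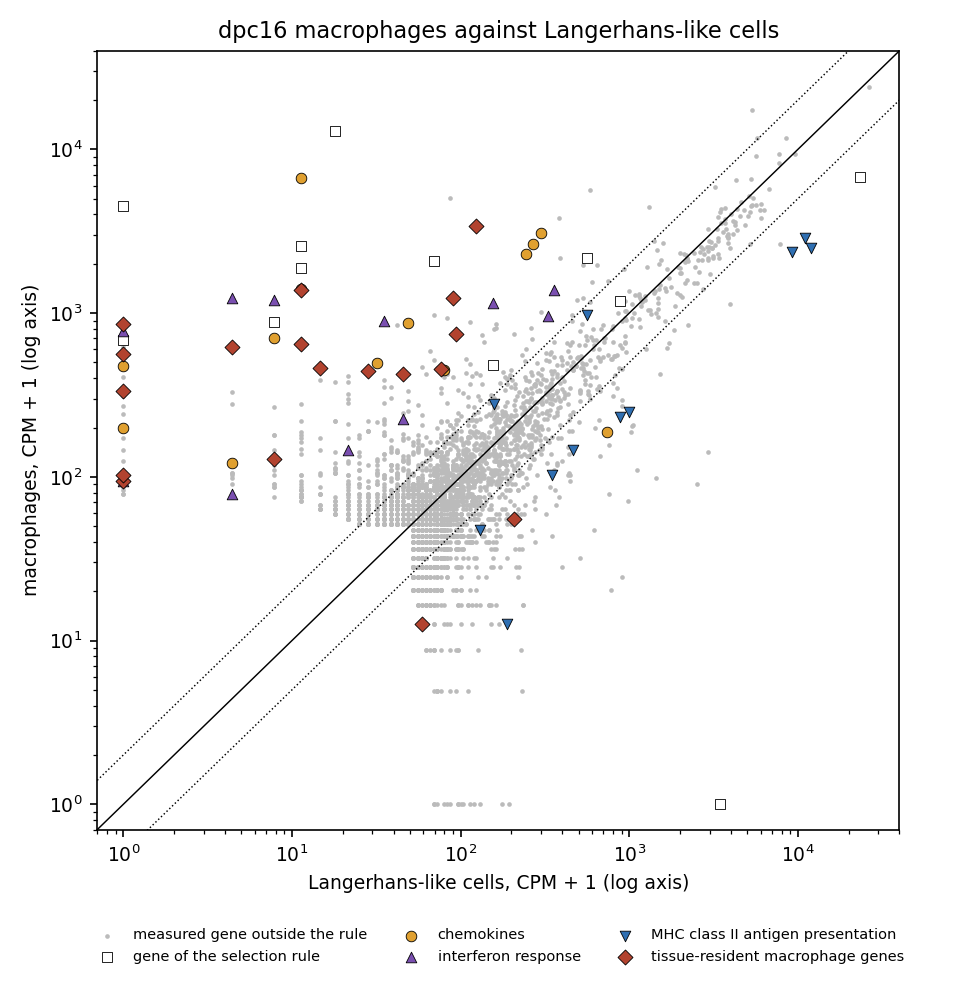
Level of each gene in dpc16 macrophages (vertical, CPM + 1, log axis) against Langerhans-like cells (horizontal, CPM + 1, log axis). Each point is 1 gene, marks show gene lists, the solid line is equality and dotted lines are 2-fold. Chemokine, interferon response and tissue-resident macrophage genes lie above the upper dotted line, except Cxcl16, Timd4 and Ltc4s.

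Macrophage genes outside the rule were higher in the selected cells. Of 14 measured pan-macrophage genes, 11 were at least 2-fold higher and 0 lower, with a median log2 ratio of 2.87. Lyz2, lysozyme, stood at 5616 against 581 CPM, a ratio of 9.66 (8.24 to 11.4), and had UMIs in 68 of the 69 macrophages and 11 of the 48 Langerhans-like cells. Adgre1, which encodes F4/80, stood at 334 against 47.9 CPM (ratio 6.98, 3.94 to 13.3), and Cd68 at 338 against 95.7 CPM (ratio 3.53, 2.28 to 5.62). Aif1 was at 319 against 20.5 CPM and Ms4a6c at 377 against 20.5 CPM. Cd14, Ctss and Csf2ra were within 2-fold, although Cd14 gave a log2 ratio of 1.53 without the top cell of each group and Csf2ra one of -1.70 with at least 4 rule genes.

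The genes of tissue-resident dermal macrophages gave a larger difference. Of 18 measured, 16 were higher, and the median log2 ratio was 4.84, or 4.12 with genes at 0 in 1 group set at the floor. Folr2, a folate receptor, had 144 UMIs in 53 macrophages (560 CPM) and none in Langerhans-like cells, so it was at least 54.6-fold higher. Cd163, the scavenger receptor for haemoglobin with haptoglobin, stood at 645 against 10.3 CPM, a ratio of 62.9 (21.2 to 308). F13a1, a clotting factor subunit, was at 1380 against 10.3 CPM, but collagen-rich cells also had 217 CPM. Wfdc17 was at 3381 against 123 CPM and Cbr2 at 463 against 13.7 CPM. Lyve1, a hyaluronan receptor of vessel-associated macrophages and lymphatic endothelium, was found in 18 macrophages at 128 CPM against 6.84 CPM. Timd4, a receptor for dying cells, and Ltc4s, leukotriene C4 synthase, were the 2 members lower in macrophages, at 11.7 against 58.1 CPM and 54.4 against 205 CPM.

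Of 15 genes of blood monocytes, 4 were measured, S100a4, S100a6, Cd44 and Thbs1, and all were within 2-fold. Thbs1 did not keep to this, with a log2 ratio of 2.09 without cells high in keratin or collagen, 1.03 without the top cell of each group and -1.57 at a limit of 5% mitochondrial UMIs. Ly6c2, Chil3, Hp and F10 had no UMI in any macrophage, and Ccr2, the monocyte receptor for Ccl2, had 2 UMIs in 1 cell.

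Langerhans cell genes outside the rule went the other way, with 10 of 11 measured members lower in macrophages and a median log2 ratio of -1.93. Mfge8, a bridge to dying cells, stood at 23.3 CPM in macrophages and 899 CPM in Langerhans-like cells, which is 38.6-fold (17.5 to 106) lower. Il1r2, the decoy receptor for interleukin-1, was 14.9-fold (9.94 to 23.3) lower, and the tight junction gene Cldn1 14.6-fold (6.85 to 37.1) lower. The adhesion gene Epcam stood at 136 against 438 CPM, with 85.7% of its macrophage UMIs in 3 cells. The transcription factor Runx3 was at 7.77 against 95.7 CPM.

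Of dendritic cell genes, 5 of 15 were measured. Sirpa, Cd209a and Naaa were higher in macrophages, Cst3 was lower at 2655 against 7778 CPM, and Irf8 stayed within 2-fold. Xcr1, Clec9a and Itgax had no UMI in the macrophages.

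**Figure D3:**
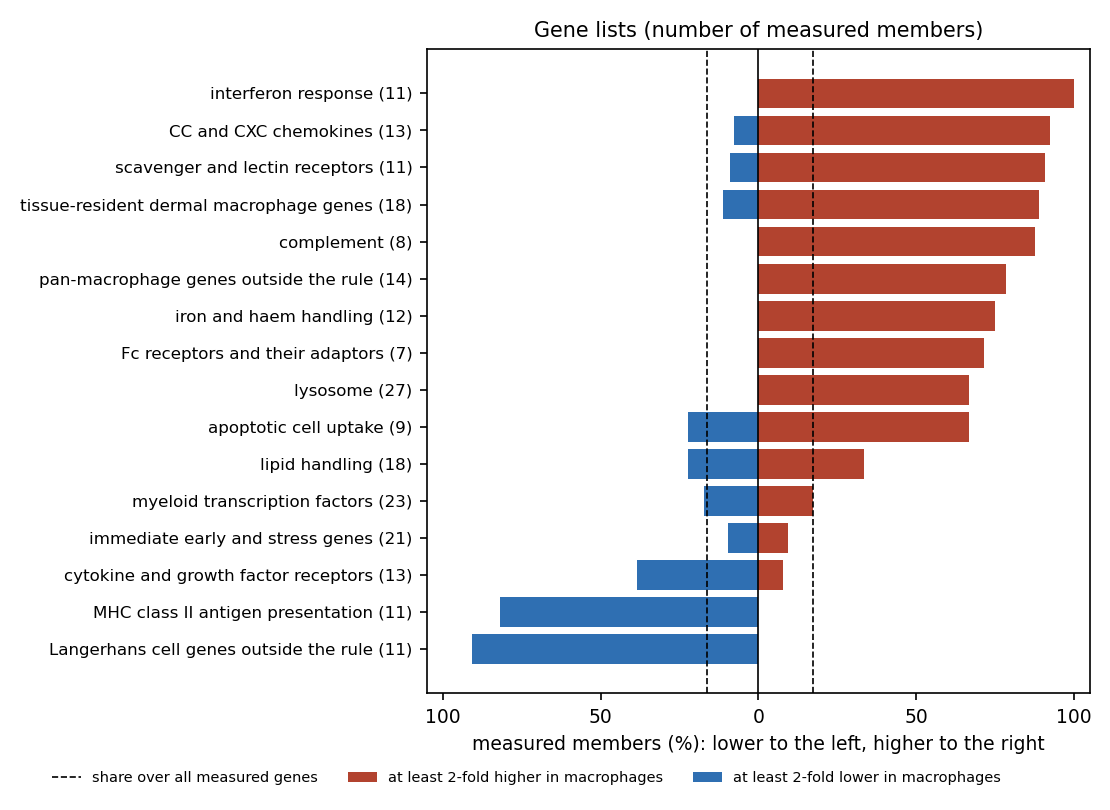
For 16 gene lists, the percentage of measured members (numbers in brackets) at least 2-fold higher in dpc16 macrophages (to the right) or lower (to the left) than in Langerhans-like cells. Dashed lines mark the shares over all measured genes, 17.3% higher and 16.4% lower. Interferon response genes reach 100% higher, and Langerhans cell genes 90.9% lower.

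Chemokines were the ligands with wide differences. Of 13 measured outside the rule, 12 were higher in macrophages, the median log2 ratio was 4.14, and Cxcl16 alone was lower, at 187 against 735 CPM. Ccl4, an inflammatory chemokine, stood at 6635 CPM (6324 to 6957) against 10.3 CPM and had the highest log2 ratio of all ranked genes, 9.12. It was found in only 24 of the 69 cells, with 34.1% of its UMIs in 3 of them. Ccl3, its neighbour on chromosome 11, stood at 700 against 6.84 CPM in 18 cells. Ccl6 at 1399 against 10.3 CPM and Ccl9 at 875 against 47.9 CPM were more widely spread, in 52 and 56 cells. The monocyte attractants Ccl2 and Ccl7 stood at 2635 and 2297 CPM against 267 and 243 CPM, but collagen-rich cells had 1865 and 1780 CPM of them. Without cells high in keratin or collagen, their log2 ratios were 5.47 and 6.75, against 3.30 and 3.23 with all cells. Ccl12 had 122 UMIs against 0, of which 1 cell held 62. Cxcl2, which draws neutrophils, stood at 3074 against 297 CPM in 36 cells. Ccl17, Ccl22 and Cxcl9 had no UMI in macrophages.

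Few chemokine and chemotactic receptors were measured, 3 of 13. The complement fragment receptors C5ar1 and C3ar1 were higher, C5ar1 by at least 19.3-fold and C3ar1 at 163 against 10.3 CPM (ratio 15.9, 5.09 to 80.3). Cxcr4 was within 2-fold, and Ccr6, Cx3cr1 and Fpr1 were at 0.

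Beyond C1q, complement genes were higher as well, 7 of 8 measured, with a median log2 ratio of 4.70, or 3.85 at the floor. C4b stood at 330 against 3.42 CPM, though collagen-rich cells had 199 CPM. Properdin (Cfp), which stabilizes the alternative pathway convertase, was at 354 against 34.2 CPM. C6, a part of the membrane attack complex, had 21 UMIs in 12 macrophages and none in Langerhans-like or any other dpc16 cells. Serping1, the C1 inhibitor, was within 2-fold, and Vsig4, a complement receptor of resident macrophages elsewhere, had no UMI.

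Receptors for antibody followed. Of 7 measured Fc receptor and adaptor genes, 5 were higher and 0 lower. Fcgr3 stood at 264 against 6.84 CPM, a ratio of 38.7 (10.3 to 326), and the inhibitory receptor Fcgr2b at 470 against 58.1 CPM, a ratio of 8.09 (4.85 to 14.4). Fcgrt, the neonatal Fc receptor, was at 443 against 27.4 CPM, with 323 CPM in collagen-rich cells.

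Scavenger and lectin receptors were higher in 10 of 11 measured members, with a median log2 ratio of 3.85, or 3.30 at the floor. The C-type lectin genes of the Cd209 family lie within 394 kb on chromosome 8. Cd209f had 221 UMIs in 46 macrophages and 0 in Langerhans-like cells, at least 83.8-fold higher. Cd209d stood at 1232 against 88.9 CPM, a ratio of 13.9 (9.28 to 21.6), but all its Langerhans-like UMIs came from 3 cells. Cd209b and Cd209g had 104 and 86 UMIs against 0. The galactose lectins Clec10a and Mgl2 stood at 618 and 746 CPM against 3.42 and 92.3 CPM. After thinning to 1500 UMIs, Cd209f was found in 53.6% (41.2 to 65.7%) of macrophages and in no keratin-rich cell.

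Genes for the uptake of dying cells were mixed, with 6 of 9 measured members higher and 2 lower. Gas6 and Pros1, the bridging ligands of the TAM receptors, stood at 455 against 75.2 CPM and 179 against 10.3 CPM. Gas6 was at 746 CPM in collagen-rich cells. The lower members were Mfge8 and Timd4.

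Lysosomal genes were higher in 18 of 27 measured members and lower in 0, with a median log2 ratio of 1.44. Ctsb, cathepsin B, was found in all 69 cells at 3782 against 379 CPM, a ratio of 9.97 (8.18 to 12.2). Ctsc, cathepsin C, stood at 847 against 41.0 CPM (ratio 20.7, 11.6 to 40.6), and Lgmn, legumain, at 937 against 82.1 CPM (ratio 11.4, 7.49 to 18.2). Progranulin (Grn) was at 968 against 68.4 CPM. Cathepsin S (Ctss), which trims the MHC class II chaperone, was within 2-fold, at 976 against 564 CPM.

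Iron and haem genes were higher in 9 of 12 measured members and lower in 0, with a median log2 ratio of 1.70. The ferritin light chain Ftl1 stood at 17408 CPM against 5337 CPM, a ratio of 3.26 (3.08 to 3.46), and the heavy chain Fth1 at 11683 against 5689 CPM, a ratio of 2.05 (1.93 to 2.18) that fell short of 2-fold, at a log2 ratio of 0.98, when scaled without mitochondrial, ribosomal protein and rule genes. Hmox1, haem oxygenase 1, was at 2169 against 390 CPM, a ratio of 5.56 (4.54 to 6.87), and was found in 62 cells. Blvrb, which acts on the product of haem breakdown, stood at 404 against 88.9 CPM. The selenium carrier Sepp1 was found in all 69 macrophages, at 5022 against 85.5 CPM, a ratio of 58.8 (39.6 to 91.1), while collagen-rich cells had 572 CPM.

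Lipid genes were mixed, with 6 of 18 measured members higher and 4 lower. Pltp, the phospholipid transfer protein, stood at 381 against 17.1 CPM, and Plin2, a coat protein of lipid droplets, at 793 against 157 CPM. Apoe was within 2-fold, at 6533 against 4314 CPM (log2 ratio 1.24 at a limit of 5% mitochondrial UMIs), and was higher in keratin-rich cells, at 9372 CPM.

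Genes read as alternative or classical activation gave 6 of 10 measured members higher and 1 lower. Retnla, a resistin-like protein induced by interleukin-4, had 160 UMIs in 16 macrophages and none in Langerhans-like cells, at least 60.6-fold higher, with 71.2% of the UMIs in 3 cells. Il10 had 23 UMIs in 7 macrophages, 12 of them in 1 cell, and 0 in Langerhans-like cells. Il1b was lower, at 62.2 against 219 CPM, but its log2 ratio moved from -1.78 to -0.23 when cells with 2 rule genes were let in and to -0.49 when cells with Cd207 UMIs were. Tnf was within 2-fold, at 152 against 92.3 CPM. Arg1 and Nos2 had no UMI in either group. Gdf15, a stress cytokine, had 82 UMIs in 25 macrophages and none in Langerhans-like cells. Igf1 stood at 424 against 44.4 CPM, with 313 CPM in collagen-rich cells.

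Interferon response genes were higher in all 11 measured members of 19 in the file, with a median log2 ratio of 3.96, or 3.19 at the floor. Ifit1, an RNA-binding antiviral protein, had 200 UMIs in 15 macrophages (777 CPM) and none in Langerhans-like cells, at least 75.8-fold higher. Rsad2, viperin, had 316 UMIs in 18 macrophages (1228 CPM) against 1 UMI, a ratio of 359 (64 to 14234). Isg15, a ubiquitin-like modifier, stood at 894 against 34.2 CPM in 25 macrophages. Other members were spread over most of the cells. Ifi27l2a was found in 58 of the 69 cells, at 1205 against 6.84 CPM. Ly6e and Ifitm3 were found in 65 and 67 macrophages, with ratios of 7.50 (5.47 to 10.5) and 3.90 (3.13 to 4.90). After thinning, Rsad2 was found in 24.6% (15.1 to 36.5%) of macrophages, 0.0776% of keratin-rich cells and no Langerhans-like cell.

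The promoters of Rsad2 (chr12:26456453-26456702, minus strand), Ifit1 (chr19:34640639-34640888, plus strand) and Isg15 (chr4:156200819-156201068, minus strand) are shown because 13 macrophages held UMIs of all 3 genes, out of 15 with Ifit1, 18 with Rsad2 and 25 with Isg15. Capitals mark the core of the interferon-stimulated response element, GAAA followed after 2 bases of any kind by another GAAA, on either strand and with overlaps counted.
Rsad2: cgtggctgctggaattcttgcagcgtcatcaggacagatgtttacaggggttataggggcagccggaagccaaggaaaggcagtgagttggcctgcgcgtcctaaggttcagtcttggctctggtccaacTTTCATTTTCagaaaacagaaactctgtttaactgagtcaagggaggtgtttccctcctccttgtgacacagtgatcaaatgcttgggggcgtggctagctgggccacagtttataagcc
Ifit1: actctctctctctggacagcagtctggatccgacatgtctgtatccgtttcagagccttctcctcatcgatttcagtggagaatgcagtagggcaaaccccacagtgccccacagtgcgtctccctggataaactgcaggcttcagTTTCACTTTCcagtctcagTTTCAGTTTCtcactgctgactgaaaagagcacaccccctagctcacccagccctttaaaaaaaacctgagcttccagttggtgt
Isg15: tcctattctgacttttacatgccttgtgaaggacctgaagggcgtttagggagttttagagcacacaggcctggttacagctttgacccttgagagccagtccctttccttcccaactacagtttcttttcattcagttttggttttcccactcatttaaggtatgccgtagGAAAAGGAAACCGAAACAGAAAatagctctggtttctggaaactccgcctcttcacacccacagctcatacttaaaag
Rsad2 had 1 match, Ifit1 had 2 and Isg15 had 3 overlapping ones. Of the 19 interferon response genes in the file, measured or not, 14 had a sequence here and 8 of these held a match (Bst2, Gbp2, Ifit1, Ifit3, Ifitm2, Isg15, Rsad2 and Stat2), against 2.98% of 32851 promoters of that length. Ifit2, Ifitm3, Irf7, Isg20, Oasl2 and Xaf1 held none. None of the 6 rule genes looked at held one.

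MHC class II antigen presentation was lower in macrophages in 9 of 11 measured members, with a median log2 ratio of -1.92. H2-Ab1 stood at 2499 CPM (2310 to 2700.0) against 11887 CPM, 4.76-fold (4.37 to 5.18) lower. H2-Aa was 3.84-fold (3.54 to 4.16) and H2-Eb1 3.93-fold (3.60 to 4.30) lower. The peptide loading gene H2-DMa stood at 249 against 1002 CPM, and H2-DMb2 at 11.7 against 188 CPM. The costimulatory gene Cd86 was 3.42-fold (2.2 to 5.48) lower. Cd74, which helped to choose the Langerhans-like cells, stood at 6751 against 23347 CPM. The 3535 dpc16 cells that were neither macrophages nor Langerhans-like had 128 CPM of H2-Ab1.

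Among myeloid transcription factors, 15 of 23 measured members stayed within 2-fold, 4 were higher and 4 lower, close to the shares over all genes. The higher ones included Maf, which takes part in macrophage differentiation, with Zeb2 and Klf2. Maf stood at 280 against 34.2 CPM, a ratio of 8.19 (4.20 to 17.8). The lower ones were Runx3, Ahr, Nr4a1 and Id1. Without cells high in keratin or collagen the log2 ratio of Nr4a1 was -0.81, short of 2-fold, and Id1 gave -0.57 when each cell had the same weight and -0.83 at a limit of 5% mitochondrial UMIs.

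Immediate early and stress genes, which dissociation at warm temperature can induce, gave 2 of 21 measured members higher and 2 lower, with a median log2 ratio of -0.04. Fos stood at 1283 against 1087 CPM, Jun at 1209 against 1244 CPM and Junb at 1419 against 1631 CPM. Both groups came from the same digested suspension, so these ratios cannot show an induction that both share.

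Cytokine and growth factor receptors were lower in 5 of 13 measured members and higher in 1, Tgfbr2. Csf2rb, a shared receptor chain for GM-CSF, stood at 42.8 against 349 CPM, 8.16-fold (4.37 to 16.9) lower. The ligands of Csf1r were higher in other cells. Csf1 was at 15.5 CPM in macrophages and 164 CPM in collagen-rich cells, and Il34 at 11.7 CPM in macrophages and 66.2 CPM in keratin-rich cells. Of hormone receptors, 5 of 14 were measured, among them Vdr, which was lower, while Nr3c1, Prlr and Il6ra were within 2-fold. The progesterone receptor Pgr and oestrogen receptor Esr1 each had 3 UMIs in the macrophages. The cycling gene Mki67 had 4 UMIs in 2 macrophages. The EGFP reporter had no UMI in any macrophage.

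By rank, the 15 highest log2 ratios outside the rule included those of Ccl4, Cd209f, Ifit1, Retnla, Folr2, Ccl12, Rsad2, Cd209b, Cd209g, Gdf15, Oasl1, Hal, Ifi27l2a and Clec10a. Hal, which encodes histidase of the upper epidermis, had 69 UMIs in 35 macrophages and 99.5 CPM in keratin-rich cells. The 15 lowest were Grasp, Hapln3, Havcr2, Rhof, Krt1, St14, Serpinb9, Scd3, Malt1, H2-M5, Serpind1, Igha, Gngt2, Cytip and Ptk2b. The ranks of Krt1 and Scd3 rest on few cells. Krt1 went from a log2 ratio of -5.88 to -1.40 without the top cell of each group and to -0.13 without cells high in keratin or collagen, and Scd3 from -5.65 to -2.14 without the top cell. Letting in cells with Cd207 UMIs brought Hapln3 from -6.50 to -2.79 and Ptk2b from -5.17 to -1.14. Havcr2, the inhibitory receptor TIM-3, had 38 UMIs in 23 Langerhans-like cells and none in macrophages, at least 11.1-fold lower. Cytip, a regulator of leukocyte adhesion, stood at 19.4 against 776 CPM, 39.9-fold (16.9 to 124) lower.

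The macrophages also held RNA of other cell types. Collagen UMIs over Col1a1, Col1a2 and Col3a1 had a median of 1 per macrophage and a maximum of 609, and 6 cells with at least 20 of them held 93.5% of the total. The 4 keratin genes had a median of 2 UMIs and a maximum of 73, and 2 cells had at least 20. All 7 measured fibroblast markers were within 2-fold of the Langerhans-like cells, in which 6 cells had at least 20 collagen UMIs. This did not hold under every alternative. Col1a1 gave a log2 ratio of -1.34 without cells high in keratin or collagen, Col3a1 1.54 against Langerhans-like cells with at least 20 Cd74 UMIs, and Col1a2 1.38 without the top cell of each group. All 10 keratinocyte markers were lower in macrophages, but without cells high in keratin or collagen the log2 ratios of Krt10 and Krt14 turned to 0.90 and 0.16, and those of Krt1 and Krt5 shrank to -0.13 and -0.17. Among the 48 Langerhans-like cells, 9 had at least 20 UMIs of the 4 keratin genes and held 83.0% of that group's keratin UMIs. Of 11 neutrophil markers 10 were at 0 in macrophages, and of 10 mast cell and basophil markers 8. Of 12 T, NK and innate lymphoid markers, 4 were at 0, Cd3e among them. Of 12 endothelial markers, 5 were at 0, and the higher members were Lyve1 and Ccl21a, with 93.4% of the Ccl21a UMIs in 3 cells and a log2 ratio of 0.02 once the top cell of each group was dropped. Ighm was the only measured B cell marker, at 144 against 61.5 CPM, and its log2 ratio was 0.84 without cells high in keratin or collagen. Their part in the results was not tested, but without cells high in keratin or collagen, 399 genes were higher and 365 lower over 57 macrophages.

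The 69 cells were compared among themselves, first by MHC class II. Summed H2-Aa, H2-Ab1 and H2-Eb1 ran from 0 in 23 macrophages to 569 UMIs per 10000, with a median of 8.49. In Langerhans-like cells the lowest was 21.8 and the median 463. A level of at least 100 was reached by 17 macrophages, and 8 cells lay between 50 and 200. The levels are read here as ranges of 1 scale, and whether they mark separate types was not tested. The members with only 3 rule genes all lay in the range from 100 up. In the cells at 0, between 0 and 100, and from 100 up (23, 29 and 17 cells), the median of the 4 Cd209 lectins was 35.3, 27.4 and 4.71 UMIs per 10000. The median of Folr2, Cd163, F13a1 and Lyve1 together was 35.4, 34.9 and 10.0. That of the C1q chains hardly varied, at 66.9, 72.5 and 77.9. Ccl8 had medians of 64.1, 133 and 25.3. Median depth was 3275, 3367 and 3275 UMIs.

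**Figure D4:**
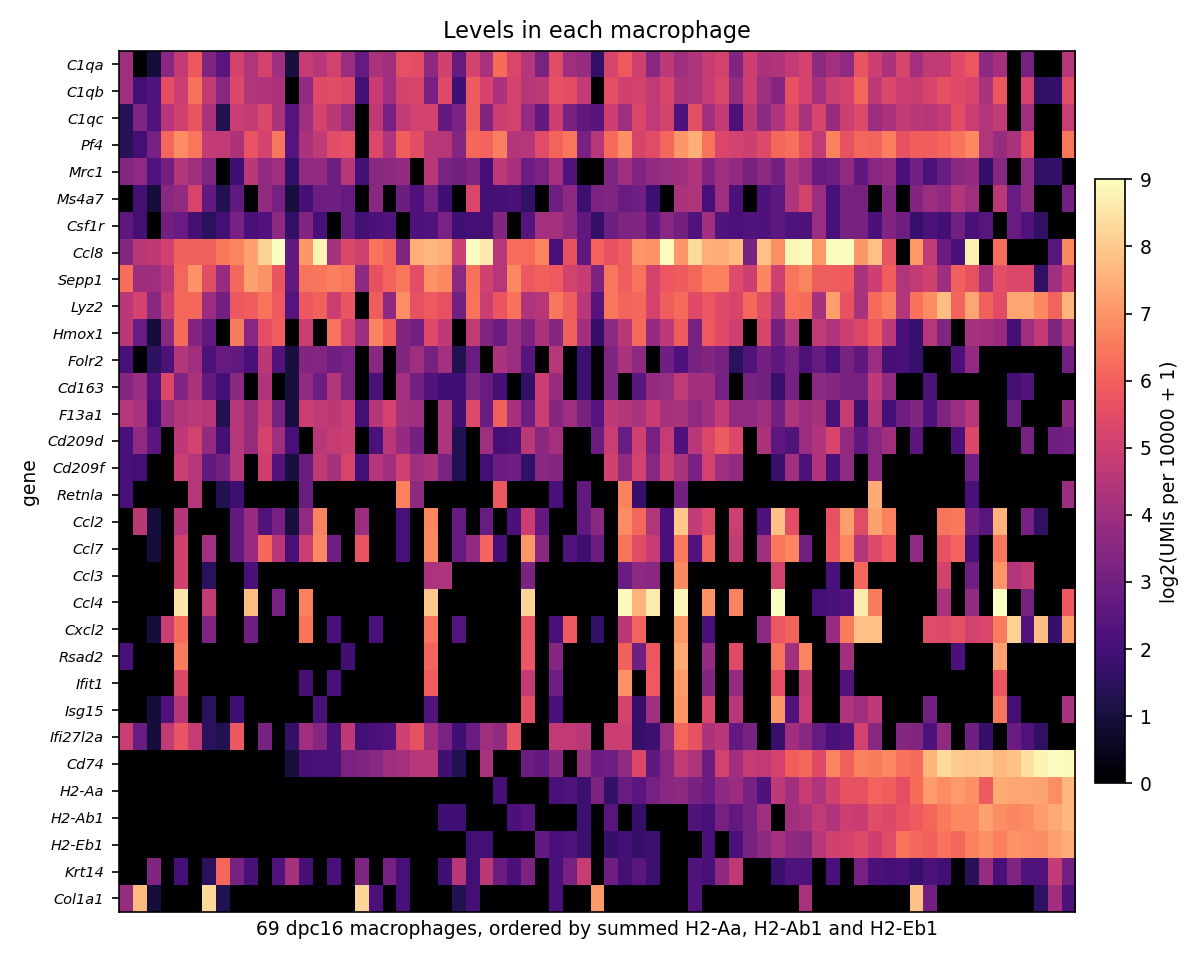
Levels of 32 genes (rows) in each of the 69 dpc16 macrophages (columns), as log2(UMIs per 10000 + 1) by colour. Columns are ordered by summed H2-Aa, H2-Ab1 and H2-Eb1, lowest at the left. C1q genes run across nearly all columns, Folr2 and Cd209 genes thin out to the right, and Ccl4, Rsad2 and Ifit1 stand in scattered single columns.

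The second respect was Ccl3, Ccl4 and Cxcl2. No UMI of them was found in 28 cells, while 18 cells reached 100 UMIs per 10000, and 10 cells held 70.3% of the UMIs. In Langerhans-like cells the highest level was 25.6. Over the ranges of MHC class II above, the macrophage median of Ccl3, Ccl4 and Cxcl2 together was 0, 3.31 and 52.8 UMIs per 10000. Their Spearman correlation with MHC class II was 0.36. The third was the interferon genes Ifit1, Rsad2, Isg15, Ifit3 and Irf7, at 0 in 34 cells and at 100 or more in 9, with 88.5% of the UMIs in 10 cells. No Langerhans-like cell exceeded 5.56.

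Across the 69 cells, which share 1 library, Spearman correlations are given as a description. The interferon genes and Ccl3, Ccl4 and Cxcl2 had a rho of 0.59. The Cd209 lectins and the set of Folr2, Cd163, F13a1 and Lyve1 had 0.64, and that set and MHC class II had -0.39. Pf4 and the C1q chains, both of the rule, had 0.56. Interferon genes and MHC class II had 0.07. Some levels also varied with depth or mitochondrial share. UMIs per cell had a rho of -0.38 with Pf4, -0.35 with the C1q chains and -0.03 with the interferon genes. Percent mitochondrial UMIs had -0.41 with the C1q chains and -0.32 with Ccl3, Ccl4 and Cxcl2. It had -0.26 with the interferon genes and 0.04 with the Cd209 lectins. The part of depth and mitochondrial share in the correlations between genes was not tested.

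**Figure D5:**
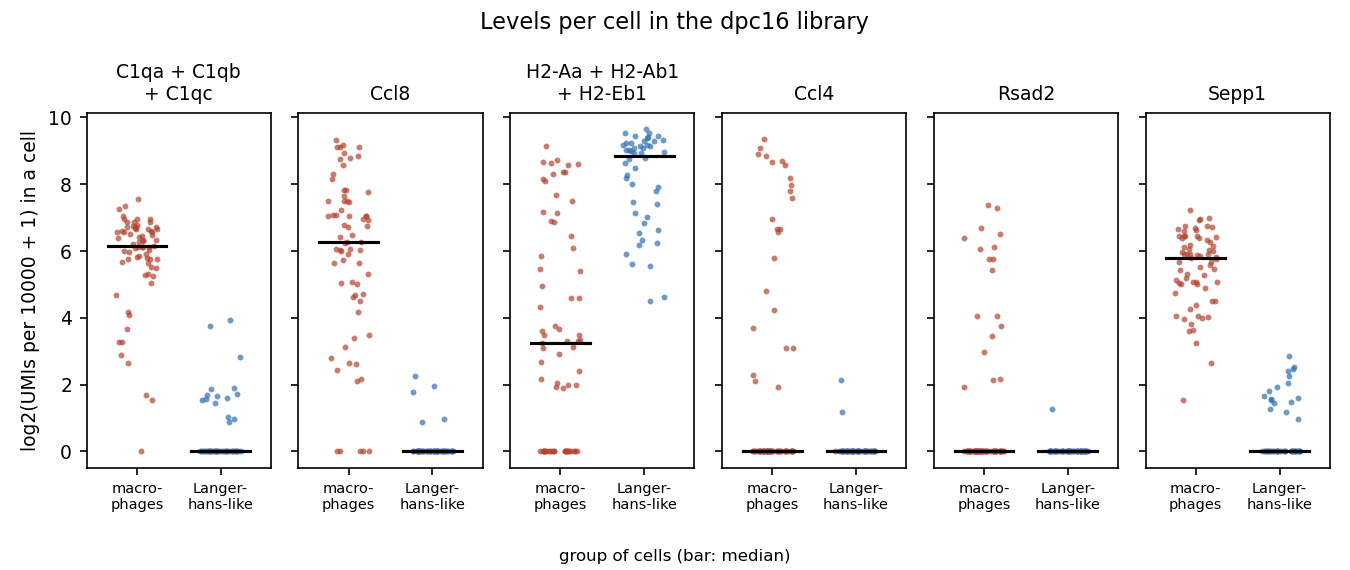
Levels per cell as log2(UMIs per 10000 + 1) of 6 genes or sums in the 69 macrophages and 48 Langerhans-like cells of dpc16. Each point is 1 cell and the bar is the median. C1q, Ccl8 and Sepp1 were high in most macrophages, and Ccl4 and Rsad2 had a median of 0 with a minority of high cells.

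The single NP macrophage had 3 rule genes, as did 3 of the 69 dpc16 members. Its 2640 UMIs held 6 of Pf4, 3 of Mrc1 and 1 of C1qa, and none of C1qb, C1qc, Ccl8, Ms4a7, Csf1r or Folr2. It had 92 UMIs of Cd74, 78 of Cxcl2, 51 of Ccl4 and 39 of Lyz1. With 1 such cell, no level of NP macrophages can be given.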

How the data were processed

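Single-cell 3′ libraries (10x Chromium, version 2 chemistry) were made from dermal cells of abdominal skin, 1 per stage. Per the labels' protocols, fat was removed, skin was held in 0.25% trypsin for 30 min, and cells were filtered at 40 and 20 µm. Per the submitters' processing notes, Cell Ranger 2.2.0 and the build mm10 (GRCm38) were used. No source used here names the annotation release. What the authors deposited is a raw UMI count for each gene in each barcode, and these counts were not scaled.

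Barcodes were kept and picked by the rule that opens the report, and no doublet caller was applied. UMIs were summed over the cells of a group and given as CPM with exact Poisson intervals. Ratios have exact conditional binomial intervals and shares exact Clopper-Pearson intervals. Log2 ratios have 0.5 UMI added to both sums. Shares of cells with a UMI were read after thinning each cell to 1500 UMIs, and no cell was shallower. Ratio intervals were tested only on counts simulated from the Poisson model that they assume. UMIs gathered in a few cells, as for Ccl4 and Retnla, were not simulated, so the test does not cover them.

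Named genes are the 15 highest and 15 lowest log2 ratios outside the rule, the genes of the rule, members of 38 gene lists with at least 50 CPM in 1 group, and Csf1 and Il34. Ribosomal protein, mitochondrial, haemoglobin and predicted genes were not ranked, nor were 7 genes under 0.2 times their CPM in other cells. The other genes given, among them Sepp1, EGFP and those at 0, were chosen after their values were seen. Some members of the named groups are not reported here, though the counts include them. The members and lists were chosen with earlier results of these data known. Collagen-rich cells and the program sums per cell were defined after seeing the data. Where a symbol stands on several rows, the first row was used. Gene positions come from GENCODE M21 by gene identifier (553 of 554 matched), and promoters from RefSeq on GRCm38.p6. Tools were Python 3.11.15, numpy 2.4.6, scipy 1.17.1, pandas 2.3.3 and matplotlib 3.10.9.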

Additional observations from a re-analysis of the deposited data

How the results depend on the processing

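Of 19 alternatives, macrophage shares were computed only for those that acted on the macrophages picked or the cells they were counted among. In each of these, the order of the macrophage shares (dpc16 above NP and dpp42) held. With at least 4 or at least 5 rule genes, NP had 0 macrophages, so no ratio of dpc16 to NP could be given, and with at least 2 the ratio was 6.62. Of cells that are not keratin-rich, an alternative chosen after seeing the data, dpc16 macrophages made up 2.92% and Langerhans-like cells 2.03%. The counts of genes higher and lower were 217 and 114 after thinning each cell to 1500 UMIs before the rule, and 146 and 108 when a gene had to reach 200 CPM. Both settings test fewer genes. Without cells high in keratin or collagen, the log2 ratios of Krt10, Krt14 and Itga6 reversed to 0.90, 0.16 and 0.047. The cause was not tested. Of 2826 log2 ratios of named genes under alternatives, 2647 stayed within counting error, 176 moved beyond it and 3 reversed. Alternatives that changed only which genes were measured or called could not move a log2 ratio, and their values are among the 2647. Reversal was counted only for genes called higher or lower. Sign changes of other genes, such as Col1a1, are in the other counts. Depth limits what absence means here: 1 UMI in the pooled macrophages is 3.89 CPM, and the limit for a gene at 0, at 3 counts, is 11.7 CPM.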

Other observations

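Some gene groups are given here as values only, for dpc16 macrophages against Langerhans-like cells. Of 11 measured integrin and adhesion genes, 4 were higher in macrophages (Itgam, Vcam1, Itgb1 and Cd81) and 5 lower (Cd9, Cd82, Cdh1, Itga6 and Epcam), although Itga6 gave a log2 ratio of 0.047 without cells high in keratin or collagen and Cd81 0.95, short of 2-fold, when cells with Cd207 UMIs were let in. Vcam1, a ligand of integrins on lymphocytes, stood at 89.4 against 6.84 CPM in 12 macrophages, with 56.5% of its UMIs in 3 of them. Of 4 measured immune inhibitory genes, Clec4a1, Sirpa and Lilrb4a were higher and Havcr2 was lower. Of 9 measured protease, protease inhibitor and clotting genes, 4 were higher, among them the inhibitor Timp2 at 859 against 161 CPM, with 62 macrophages holding it. Mmp8, Mmp12, F7 and F10 had no UMI in macrophages. Rgs1, a brake on chemokine receptor signalling, stood at 89.4 against 2537 CPM, 28.4-fold (18.8 to 45.0) lower in macrophages.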
